A study of Mus musculus with 2 samples.

Results

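The genes of glycolysis and gluconeogenesis are described here in 2 libraries of mouse chondrocytes, labelled control and *Myl3*-KO for the deleted gene of a myosin light chain. The members were the 66 of 22156 genes whose pathway annotation in the deposited table held the glycolysis and gluconeogenesis map of KEGG. The annotation and no expression value decided membership, but the pathway itself was chosen because genes of it were low in *Myl3*-KO in these same 2 libraries, so every ratio given below is a description and supports nothing independently. Of the 66 members, 41 reached 10 counts in the 2 libraries combined and were compared, 6 had fewer, and 19 were listed at 0 in both.

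The study sequenced RNA from 1 control library and 1 *Myl3*-KO library, both from cultured chondrocytes of newborn C57BL/6J mice, for which the labels give rib cartilage as the source and the paper rib and articular cartilage. The culture medium was DMEM/F12 with FBS. In *Myl3*-KO mice, a *Col2a1*-driven Cre recombinase deletes the floxed *Myl3* alleles, so that cells which never used the *Col2a1* promoter keep the gene. The control mice carried the floxed alleles without Cre according to the paper and are called WT in the sample labels, and whether animals were pooled for a library was not given in the sources used here. The totals were 17612434.91 expected counts in control and 13477976.98 in *Myl3*-KO, so that a floor of 3 counts corresponded to 0.170 and 0.223 CPM, the count scaled to the library total.

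*Myl3* had 0 counts in both libraries, and the deletion could therefore not be checked. The defining markers of chondrocytes were low or listed at 0. Of 9 chondrocyte markers, *Acan*, *Matn1*, *Matn3* and *Hapln1* were listed at 0 in both libraries and only 3 had enough counts, with a summed level of 57.8 CPM in control and 45.2 in *Myl3*-KO. Most of this sum came from *Sox9*, with 866 and 480 counts and a log2 ratio of -0.47 (-0.63 to -0.30), while *Col2a1* had 30 and 27 counts with 0.23 (-0.57 to 1.03). The 7 fibroblast markers summed to 14799 and 16903 CPM, nearly all of it from the collagen genes *Col1a2*, *Col3a1* and *Col1a1*. *Col1a2* alone had 211652 and 189213 counts. The other markers were far lower. *Dcn* had 631 and 155 counts and *Lum* 272 and 81, and both were called lower in *Myl3*-KO by the rule given below. *Pdgfra* had 120 and 140 and was called higher, and *Thy1* was listed at 0. Of 11 skeletal muscle markers, *Cdh15* was called higher (73 counts in control, 290 in *Myl3*-KO) while *Myod1*, *Myog*, *Myf5*, *Pax7*, *Des* and *Ckm* were listed at 0. Macrophage, endothelial and erythroid markers each summed to at most 2.45 CPM in either library. The part of these differences between the libraries in the values below was not tested, and in bulk RNA a smaller share of a cell type and less RNA per cell cannot be told apart.

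Glycolysis splits glucose into pyruvate and yields ATP without oxygen, and lactate dehydrogenase then turns pyruvate into lactate. Most steps can be run by several isoenzymes, encoded by separate genes that differ between tissues. When oxygen is low, the transcription factor HIF-1 raises a known subset of them by binding a short DNA element, and cartilage, which has no blood vessels, is known to rely on glycolysis. From general knowledge, 12 isoenzyme genes of this subset were listed as the core hypoxia-inducible genes: *Hk2*, *Gpi1*, *Pfkl*, *Aldoa*, *Aldoc*, *Tpi1*, *Gapdh*, *Pgk1*, *Pgam1*, *Eno1*, *Pkm* and *Ldha*. They were set against the other genes of the same 11 steps from hexokinase to lactate dehydrogenase, called the chain.

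The chain took a smaller share of the *Myl3*-KO library than of the control library. Its genes together held 1.02% of all counts in control and 0.783% in *Myl3*-KO, and the core genes alone held 0.880% and 0.667%. *Ldha*, *Pgk1* and *Pkm* supplied most of this, with 0.532% and 0.397%. All 66 members together held 1.23% (95% Clopper-Pearson interval 1.22 to 1.24) and 0.994% (0.989 to 0.999). Ratios were taken on the log2 scale from counts per library total, with *Myl3*-KO divided by control, and had a median of -0.39 over the 12 core genes, of which 11 lay below 0. Over the 9 other counted genes of the chain the median was -0.10, with 6 below 0. Over all 12431 genes tested, which reached 10 counts in both libraries combined, it was 0.02, with 5878 below 0. All intervals and floors cover counting error only. With 1 library per genotype no difference has a replicate check, and no p-value was computed.

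A gene was called lower or higher when its log2 ratio was at least 0.5 in size and its 95% counting interval left out 0. Among the 41 counted members, 4 were called lower (9.76%, against 1.62% of all genes tested) and 1 was called higher (2.44%, against 4.68%). The 4 called lower were *Hk2*, *Gapdh*, *Pgk1* and *Ldha*, which all belong to the core, and the 1 called higher was *Aldh3a1*. Just inside the limit lay *Pgk1* at -0.58 and *Ldha* at -0.63, and just outside it lay *Tpi1* at -0.45 and *Eno1b* at -0.44. Without a limit on size, the interval lay below 0 for 21 members (51.2%, against 20.1% of all genes) and above 0 for 7 (17.1%, against 22.2%). Deeply counted genes have narrower intervals, and among genes that reached 1000 counts in the combined libraries the background was 31.3% below 0 and 27.4% above 0, where 20 (64.5%) and 4 (12.9%) of 31 members lay. These shares describe a pathway picked on the same contrast.

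**Figure D1:**
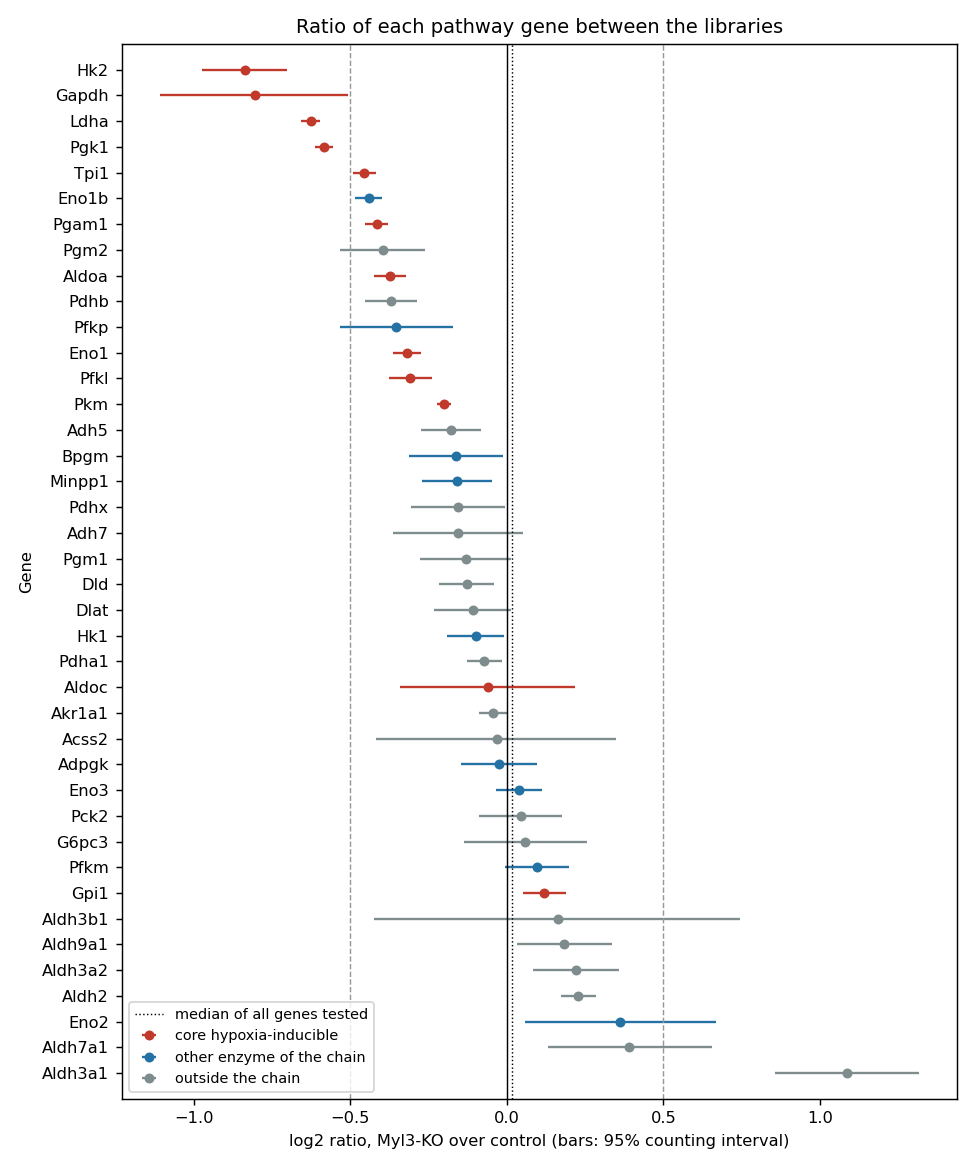
Log2 ratio, *Myl3*-KO over control, (horizontal axis) for 40 of the 41 counted members, sorted by ratio, with bars for the 95% counting interval; *Aldh1b1*, with 10 counts in all, is left out. Dashed lines mark the limits at -0.5 and 0.5 and the dotted line the median of all genes tested, and the 4 genes beyond the lower limit are all from the core list.

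Hexokinases trap glucose in the cell by phosphorylating it, and spans of genes are given on GRCm38 from the GENCODE M21 annotation. *Hk2*, the inducible isoenzyme (ENSMUSG00000000628, chr6:82725025-82774454, minus strand), had 1490 counts in control and 638 in *Myl3*-KO, or 15.4 and 8.59 FPKM, a level that is scaled by gene length and can be compared between genes. Its log2 ratio was -0.84 (-0.97 to -0.70), which corresponds to 0.560 times the control level. *Hk1*, the housekeeping isoenzyme (ENSMUSG00000037012, chr10:62268855-62379908, minus strand), had 2433 and 1737 counts, or 36.4 and 34.2 FPKM, with a log2 ratio of -0.10 (-0.19 to -0.01). *Hk2* therefore made up 29.7% of the hexokinase FPKM in control and 20.1% in *Myl3*-KO. The ratio of *Hk2* to *Hk1*, which does not depend on how the libraries are scaled, was 0.600 times as high in *Myl3*-KO (0.536 to 0.671). *Hk3* and *Hkdc1* were listed at 0. *Adpgk*, which uses ADP in place of ATP, had 1312 and 987 counts and a log2 ratio of -0.02 (-0.15 to 0.10).

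The promoters of both hexokinases are shown because the low-oxygen element that HIF-1 binds has the core letters ACGTG or GCGTG. Only ACGTG is marked and called a match here. RefSeq start sites on GRCm38.p6 were used, 250 bases before the start are printed 5′ to 3′ on the strand of the gene, and capitals mark ACGTG on either strand, that is ACGTG or CACGT. *Hk2* held 2 matches before its start. *Hk1* has 2 annotated starts, of which the one printed held 0 matches before the start and 2 in the 50 bases after it, and the other held 0 in either stretch. GCGTG on either strand ran the other way, with 0 in the printed *Hk2* stretch and 2 separate ones in the printed *Hk1* stretch.
Hk2, chr6:82774455-82774704, minus strand: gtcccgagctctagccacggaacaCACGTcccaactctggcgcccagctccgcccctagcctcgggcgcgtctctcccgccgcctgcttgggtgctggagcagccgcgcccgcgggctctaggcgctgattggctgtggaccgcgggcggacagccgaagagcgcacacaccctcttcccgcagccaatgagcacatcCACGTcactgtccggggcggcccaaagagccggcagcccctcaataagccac
Hk1, chr10:62340422-62340671, minus strand: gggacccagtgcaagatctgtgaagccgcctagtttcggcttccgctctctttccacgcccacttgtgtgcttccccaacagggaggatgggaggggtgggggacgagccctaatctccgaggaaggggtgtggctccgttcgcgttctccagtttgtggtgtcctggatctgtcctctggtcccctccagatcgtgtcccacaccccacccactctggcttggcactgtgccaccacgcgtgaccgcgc

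*Gpi1*, which turns glucose 6-phosphate into fructose 6-phosphate, was the core gene that ran against the others. It had 3718 counts in control and 3091 in *Myl3*-KO, with a log2 ratio of 0.12 (0.05 to 0.19), but its FPKM of 115 and 106 gave -0.11, so its direction depends on the measure. Phosphofructokinase, which commits the sugar to glycolysis, came from 3 genes. *Pfkl*, the liver-type and core gene, had 4383 and 2709 counts, or 77.1 and 64.4 FPKM, with a log2 ratio of -0.31 (-0.38 to -0.24). The muscle-type *Pfkm* had 1710 and 1399 counts, or 33.7 and 36.0 FPKM, with 0.10 (-0.01 to 0.20). The platelet-type *Pfkp*, which was not on the core list, had 676 and 405 counts with -0.35 (-0.53 to -0.17). *Pfkl* was thus lower relative to *Pfkm* (0.755 times, 0.693 to 0.824) but not detectably so relative to *Pfkp* (1.03 times, 0.902 to 1.18). Of the phosphofructokinase FPKM, *Pfkm* made up 27.5% in control and 33.0% in *Myl3*-KO.

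Aldolase and triose phosphate isomerase cut the sugar and interconvert the triose products. *Aldoa* provided 97.9% of the aldolase FPKM in control and 97.5% in *Myl3*-KO. It had 8243 and 4874 counts, or 322 and 251 FPKM, and a log2 ratio of -0.37 (-0.42 to -0.32). *Aldoc*, also a core gene, had only 255 and 187 counts and -0.06 (-0.34 to 0.22), and the ratio of *Aldoa* to *Aldoc* was 0.806 times as high in *Myl3*-KO (0.663 to 0.982). *Aldoart1* was listed at 0. *Tpi1*, the sole gene of its step, had 16189 and 9038 counts, or 578 and 419 FPKM, with -0.45 (-0.49 to -0.42).

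*Gapdh* and *Pgk1*, the enzymes around the first ATP yielded by the chain, were both called lower. *Gapdh* (ENSMUSG00000057666, chr6:125161715-125166467, minus strand) had 306 counts in control and 134 in *Myl3*-KO, or 13.2 and 7.10 FPKM, with a log2 ratio of -0.81 (-1.11 to -0.51). These levels lie far below those of its neighbours in the chain, as *Tpi1* and *Pgk1* show. Of the 31-base words in its principal GENCODE transcript, 79.8% also occur in other annotated genes, and 108 of the 114 genes that hold at least 10% of them are pseudogenes. Other housekeeping genes were also counted very low, such as *Ppia* with 236 and 126 counts and *Rps18* with 4.52 and 3, while *Actb* had 27537 and 24939 and *Rplp0* 84949 and 65206. The *Gapdh* value is therefore given as uncertain, and a 0 in this table is reported only as listed at 0. Without *Gapdh* the median over the core genes was -0.37.

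*Pgk1* (ENSMUSG00000062070, chrX:106187100-106203699, plus strand) had 26964 counts in control and 13764 in *Myl3*-KO, or 839 and 560 FPKM, which placed it at rank 76 and rank 111 of all genes by FPKM. Its log2 ratio was -0.58 (-0.61 to -0.55), or 0.667 times the control level. Of its words 68.3% are shared, nearly all with *Pgk1-rs7*, which has no row in the deposited table. How reads that match both were handled is not given in the sources used here. The testis isoenzyme gene *Pgk2* was listed at 0. The promoters of both genes are shown for the same element. *Pgk1* held 2 matches within 150 bases of its start, and *Gapdh* held 0 before its start and 1 after it. GCGTG occurred 0 times in the printed *Pgk1* stretch and 2 times in the printed *Gapdh* stretch.
Pgk1, chrX:106186850-106187099, plus strand: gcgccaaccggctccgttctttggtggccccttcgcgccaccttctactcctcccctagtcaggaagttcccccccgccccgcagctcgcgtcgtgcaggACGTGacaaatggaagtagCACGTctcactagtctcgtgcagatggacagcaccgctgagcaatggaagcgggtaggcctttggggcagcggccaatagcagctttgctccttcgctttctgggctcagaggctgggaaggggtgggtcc
Gapdh, chr6:125165774-125166023, minus strand: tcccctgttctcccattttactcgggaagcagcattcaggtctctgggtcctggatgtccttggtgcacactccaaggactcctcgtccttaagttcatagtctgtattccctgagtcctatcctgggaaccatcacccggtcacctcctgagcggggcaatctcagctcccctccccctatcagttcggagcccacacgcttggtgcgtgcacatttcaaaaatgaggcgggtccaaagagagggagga

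**Figure D2:**
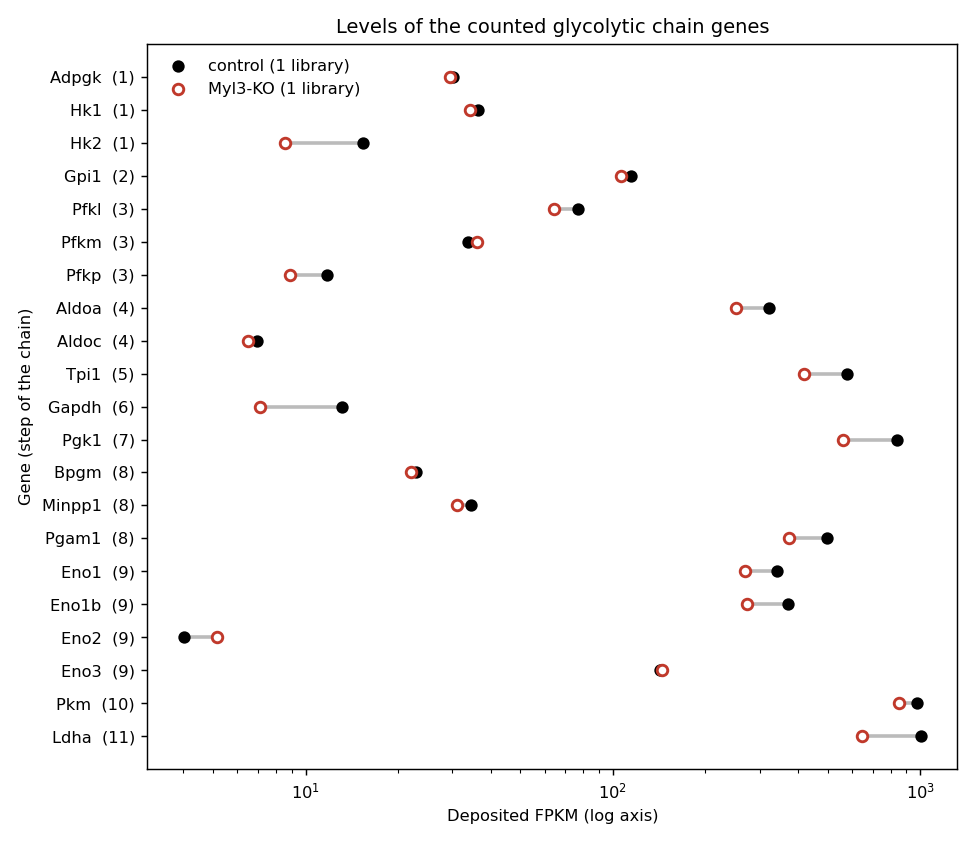
Deposited FPKM (log axis) in the control library (filled) and the *Myl3*-KO library (open) for the 21 counted genes of the chain, ordered by step, with the step number after each name. *Ldha*, *Pkm* and *Pgk1* have the highest levels in both libraries, and *Gapdh* lies at 13.2 and 7.10 FPKM.

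Phosphoglycerate mutase and enolase rearrange the remaining phosphate. *Pgam1* had 16073 counts in control and 9223 in *Myl3*-KO, or 498 and 374 FPKM, with a log2 ratio of -0.42 (-0.45 to -0.38). Of the *Pgam1* words 42.1% also occur in other annotated genes. *Bpgm*, which makes the haemoglobin effector of red cells, had 894 and 611 counts with -0.16 (-0.31 to -0.01), and *Minpp1*, an inositol phosphate phosphatase placed in this step by the annotation, had 1597 and 1095 with -0.16 (-0.27 to -0.05). Relative to these, *Pgam1* was 0.840 times (0.754 to 0.935) and 0.837 times (0.771 to 0.908) as high in *Myl3*-KO. The muscle gene *Pgam2* had 4 and 3 counts and was not compared.

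The enolases differed among themselves. *Eno1* had 10519 and 6459 counts with a log2 ratio of -0.32 (-0.36 to -0.27), and *Eno1b*, a near copy, had 11493 and 6476 with -0.44 (-0.49 to -0.40). Since 77.2% of the *Eno1* words and 89.2% of the *Eno1b* words occur in other genes, mostly in each other, their split is uncertain, and their sum of 22012 and 12935 counts gave -0.38 (-0.41 to -0.35). *Eno3*, the muscle enolase, had 3512 and 2760 counts, or 143 and 144 FPKM, with 0.04 (-0.03 to 0.11). *Eno2*, the neuronal enolase, had 183 and 180 counts, or 4.03 and 5.16 FPKM, with 0.36 (0.06 to 0.67). The ratio of *Eno1* to *Eno3* was 0.781 times (0.736 to 0.829) and that of *Eno1* to *Eno2* 0.624 times (0.504 to 0.773) as high in *Myl3*-KO. *Eno3* made up 16.6% of the enolase FPKM in control and 20.9% in *Myl3*-KO.

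Pyruvate kinase and lactate dehydrogenase close the chain. *Pkm*, which makes pyruvate, had 38979 counts in control and 25965 in *Myl3*-KO, or 978 and 850 FPKM, with a log2 ratio of -0.20 (-0.22 to -0.18). Its splice forms were not separated in the table, and *Pklr* was listed at 0. *Ldha* (ENSMUSG00000063229, chr7:46841475-46855627, plus strand) had 27835 and 13792 counts, or 1002 and 646 FPKM, which placed it at rank 59 and rank 94. Its log2 ratio was -0.63 (-0.66 to -0.60), or 0.647 times the control level. All lactate dehydrogenase FPKM but that of 2 *Ldhc* counts came from *Ldha*, with *Ldhb* and *Ldhal6b* listed at 0, so no isoenzyme pair could be formed for this step. Of the *Pkm* words 50.9% and of the *Ldha* words 33.6% also occur in other annotated genes. For *Ldhb* this share was 41.4%, chiefly in *Gm5514*.

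The upstream start of *Ldha* held the densest matches of the printed promoters. It had 3 separate matches, of which 2 lay in the palindrome CACGTG, and its second annotated start held 0. The 50 bases after this upstream start share no 20-base run with a GENCODE transcript of *Ldha*, which held for 5 of 69 windows of members. The only window of *Pgam1* is another of these. Both genes are counted below as core genes with a match through such a window alone.
Ldha, chr7:46845554-46845803, plus strand: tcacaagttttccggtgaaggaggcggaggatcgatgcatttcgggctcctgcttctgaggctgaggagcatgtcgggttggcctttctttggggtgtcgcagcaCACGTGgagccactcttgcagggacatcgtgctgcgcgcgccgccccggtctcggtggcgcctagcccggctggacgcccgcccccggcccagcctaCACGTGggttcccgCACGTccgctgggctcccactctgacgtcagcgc

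Across the genes with a RefSeq window of 250 bases before and 50 after a start, matched by symbol and position for 54 of the 66 members, ACGTG on either strand occurred in 8 of 12 core genes (66.7%) and in 3 of 8 other counted genes of the chain (37.5%). Among all 27025 genes of the promoter table the share was 21.8%, and among the 9430 of them tested here it was 29.5%. The 8 core genes with a match had log2 ratios from -0.84 to -0.06, and the 4 without (*Gpi1*, *Pfkl*, *Tpi1* and *Eno1*) from -0.45 to 0.12. These ranges overlap, and *Pfkl* and *Eno1* did hold GCGTG. The other core letters, GCGTG, occurred in 6 of 12 core genes (50%), 6 of 8 others (75%) and 57.2% of the genes tested. By these letters the core genes had the smallest of these shares, so the contrast depends on the letters counted. A link between matches and ratios was not tested. Genes with several starts had more windows to hold a match. A match is a run of letters and not a site shown to be bound, and the share in members outside the chain was 40% (6 of 15).

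**Figure D3:**
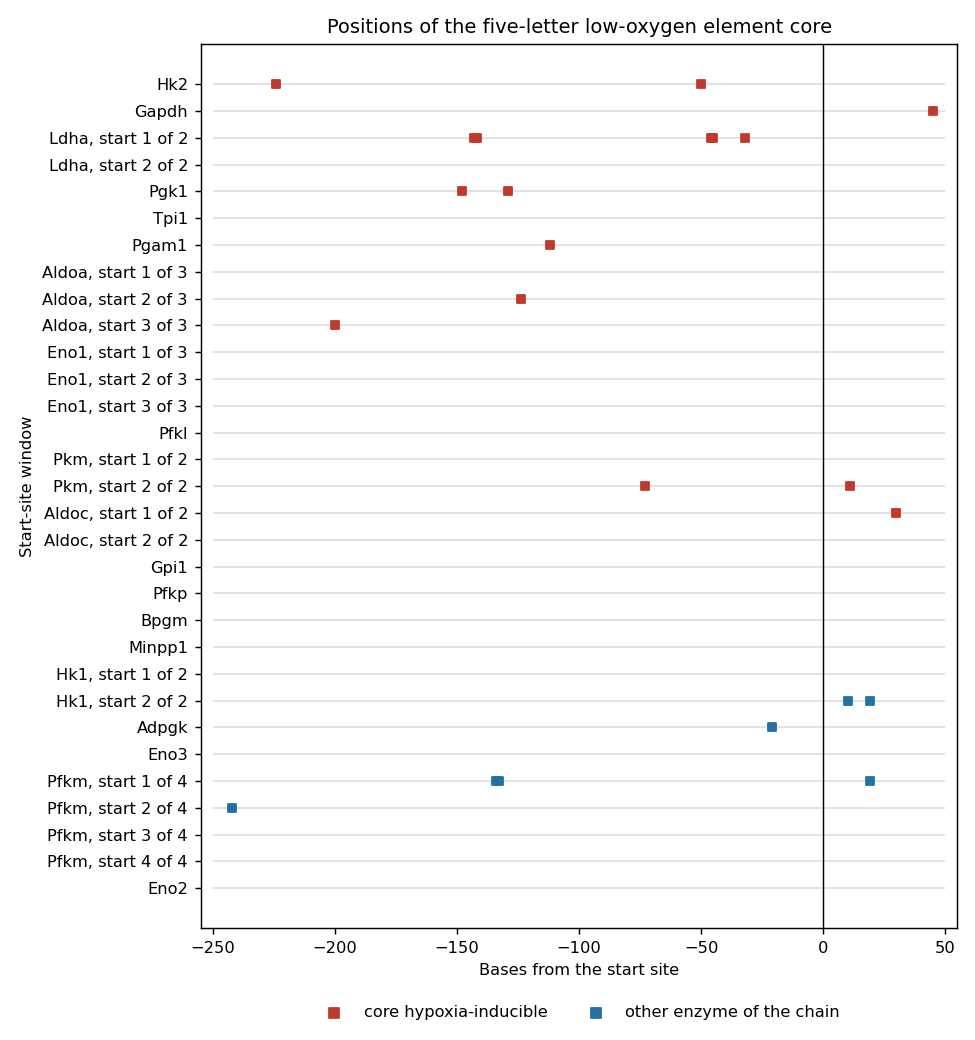
Positions of ACGTG on either strand (squares), in bases from the annotated start site, in each RefSeq window of the counted chain genes, with core genes above and the others below, each ordered by log2 ratio. *Hk2*, *Ldha* and *Pgk1* hold matches before a start, *Gapdh* only after it, and 4 core genes hold none. The other core letters, GCGTG, are not drawn.

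Within steps, 9 pairs of genes could be compared, each setting the most counted core gene of a step against another counted gene of it. Not every partner is an isoenzyme, since *Minpp1* is in its step only by annotation. The interval of the ratio lay below 1 for 7 pairs and above 1 for 1, and among the 8 pairs whose second gene was not on the core list these numbers were 6 and 1. No share over other pairs of genes was computed to set beside these numbers. Single genes with at least 1000 counts often had intervals on 1 side of 0, with 31.3% below it and 27.4% above it. The pair above 1 was *Eno1* against its near copy *Eno1b* (1.09 times, 1.04 to 1.14), where reads are shared. The pair whose interval held 1 was *Pfkl* against *Pfkp*. Ratios computed from FPKM lay within the counting interval for all 9 pairs. Pairs of one step share the core gene and are not independent of each other. *Hk1*, *Pfkp* and *Eno2*, counted here as not core, were on the wider core list described below. Under that list, pairs with them do not set an inducible gene against another kind.

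**Figure D4:**
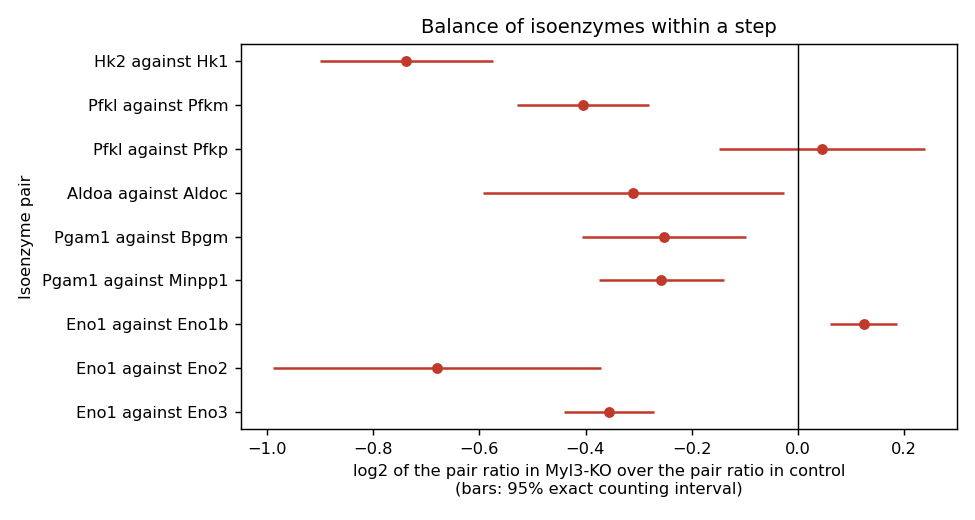
For each of the 9 pairs of genes within a step, the log2 of the ratio between the named genes in *Myl3*-KO over the same ratio in control, with bars for the exact 95% counting interval. Values left of 0 mean that the first, core gene was lower relative to its partner, and 7 intervals lie wholly there.

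The pyruvate dehydrogenase complex, which sends pyruvate to the mitochondrial cycle instead of to lactate, gave a median of -0.13 on the log2 scale for 5 counted genes, all below 0 and 0 called. For comparison, 5878 of all 12431 genes tested lay below 0. *Pdha1*, its most counted gene, had 6323 counts in control and 4604 in *Myl3*-KO with -0.07 (-0.13 to -0.02). *Pdhb* had the lowest ratio of the complex, with 3176 and 1880 counts and -0.37 (-0.45 to -0.29). For *Dlat* the interval held 0, and for *Dld* and *Pdhx* it lay below 0. *Pdha2* was listed at 0.

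Gluconeogenesis proper was hardly represented. *Pck1* and *Fbp1*, which run the liver and kidney route to glucose, were listed at 0, as were *Fbp2* and *G6pc2*, forms known from muscle and pancreatic islets, and *G6pc* had 1 and 0 counts. The forms found in many tissues were counted, with 1079 and 851 counts for the mitochondrial *Pck2* (0.04, -0.09 to 0.18) and 483 and 385 for *G6pc3* (0.06, -0.14 to 0.26). Of the phosphoglucomutase genes that feed the chain from glycogen, the row named *Pgm2* had 1202 and 699 counts with -0.40 (-0.53 to -0.26), and the row named *Pgm1* 929 and 649 with -0.13. Gene symbols of this pair are exchanged between annotations, so they are given as the table names them. *Galm* was listed at 0.

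The alcohol and aldehyde dehydrogenases, which the pathway map places at its edge because they handle ethanol, acetaldehyde and other aldehydes, were divided. Of 11 counted genes in this group, which includes the acetate-activating *Acss2*, 4 lay below 0 and the median log2 ratio was 0.18. The 7 aldehyde dehydrogenases had a median of 0.23 and 0 below 0, where 5878 of all 12431 genes tested lay below 0. *Aldh3a1* (ENSMUSG00000019102, chr11:61207537-61218421, plus strand), which oxidises aldehydes from lipid peroxidation, had 253 counts in control and 411 in *Myl3*-KO, or 8.34 and 17.7 FPKM, with 1.09 (0.86 to 1.32), or 2.12 times the control level. The mitochondrial *Aldh2* had 5544 and 4970 counts, or 266 and 313 FPKM, with 0.23 (0.17 to 0.28). The interval also lay above 0 for *Aldh3a2*, *Aldh7a1* and *Aldh9a1*, and held 0 for *Aldh3b1* and for *Aldh1b1*, which had 3 and 7 counts. *Akr1a1*, an aldehyde reductase and the most counted gene of this group, had 9289 and 6899 counts with -0.04 (-0.09 to 0.00), *Adh5* had 2158 and 1460 with -0.18 (-0.27 to -0.08), and *Adh7* had 473 and 325 with -0.16 (-0.36 to 0.05). *Acss2* had 135 and 101 counts with -0.03 (-0.42 to 0.35). *Acss1*, *Adh4*, *Aldh3b2* and *Aldh3b3* were listed at 0, and *Adh1* and *Aldh1a3* had under 10 counts.

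**Figure D5:**
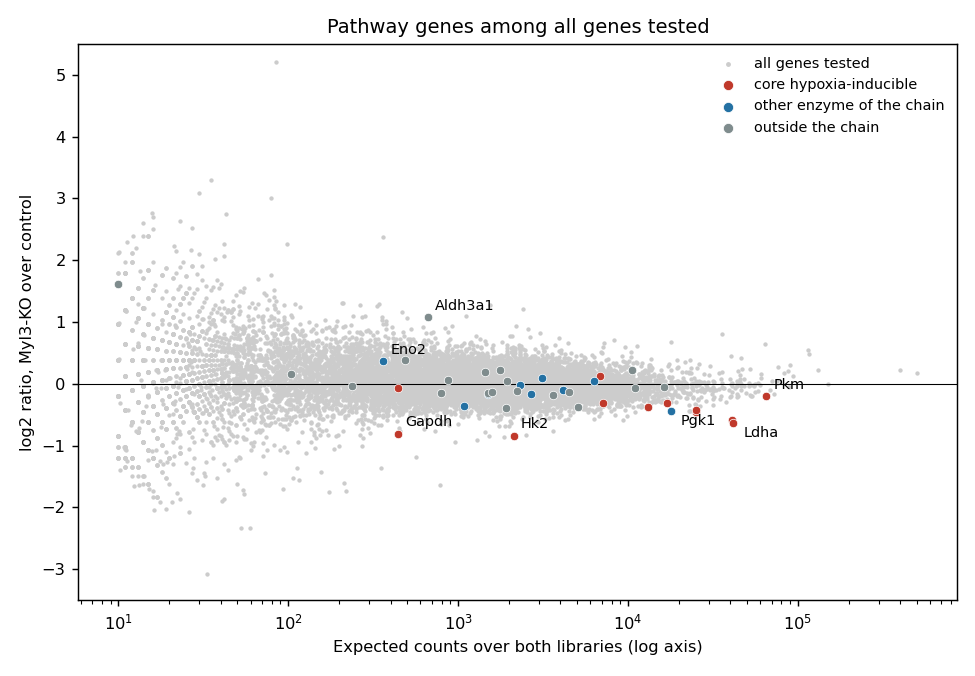
Log2 ratio, *Myl3*-KO over control, against the expected counts over both libraries (log axis) for the 12431 genes tested (grey), with core genes in red, other chain genes in blue and other members in dark grey. *Ldha* and *Pgk1* lie at -0.63 and -0.58.

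Outside the pathway, 10 genes of glucose supply and the low-oxygen response were listed. Of these, 3 were called lower and 0 were called higher, against the background of 1.62% and 4.68% given above. *Slc2a1*, the glucose transporter GLUT1, had 1586 counts in control and 835 in *Myl3*-KO with a log2 ratio of -0.54 (-0.66 to -0.42). *Pdk1*, the kinase that shuts pyruvate dehydrogenase, had 2361 and 1248 with -0.53 (-0.63 to -0.43). *Egln3*, an oxygen-sensing hydroxylase and itself a HIF-1 target, had 55 and 20 with -1.07 (-1.89 to -0.31). Its relative *Egln1* had 2480 and 1364 with -0.48 (-0.57 to -0.38) and was not called. The subunit gene *Hif1a* had 3161 and 2026 counts with -0.26 (-0.34 to -0.17), and its partner *Arnt* had 1579 and 1468 with 0.28 (0.18 to 0.38). *Vhl*, which marks the subunit for breakdown, gave -0.19 (-0.32 to -0.06) and *Pfkfb3*, which makes an activator of phosphofructokinase, -0.24 (-0.38 to -0.11). *Epas1* had 10 and 8 counts, and the lactate exporter gene *Slc16a3* had 14 and 3, with an interval that held 0. Oxygen was not measured, and its part in these values was not tested.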

How the data were processed

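RNA of 1 control and 1 *Myl3*-KO library was measured. The authors deposited an expected count (estimated reads, 1438 and 1388 of them not whole) and an FPKM value per gene. The submitters' processing notes name the builds GRCm38 and mm10, while the aligner, the counting tool and its use of strand are not given in the sources used here. The column NC was read as control. Log2 ratios used expected counts per library total, and counts were rounded for the Clopper-Pearson and exact conditional intervals. Only the intervals of the log2 ratios were checked on simulated counts, which were drawn with counting error alone. The exact conditional intervals of the pairs were not simulated. With 1 library per genotype no edgeR or DESeq2 test could be fitted, and these tools gave scaling factors only. Annotation came from GENCODE M21 and promoters from RefSeq (GRCm38.p6). Members and lists were chosen with earlier results of these data known. Named were all counted isoenzymes of the chain, the most counted and all called genes of other groups, members listed at 0, 10 low-oxygen genes and the markers. Other genes (*Pdhb*, housekeeping genes, partners with shared sequence) were named after their values were seen. Some members are not reported here by name. Alternatives were TMM or DESeq2 scaling, FPKM ratios, the total without the 10 most abundant genes, 1 added count, other filters and limits, and a wider core list. Tools were Python 3.11.15, numpy 2.4.6, pandas 2.3.3, scipy 1.17.1, matplotlib 3.10.9, R 4.3.3, edgeR 4.0.16 and DESeq2 1.42.0.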

Additional observations from a re-analysis of the deposited data

How the results depend on the processing

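No paired analysis was possible because each genotype has 1 library, and for the same reason no library could be left out. When the limit on size was 0.3 (log2), 13 members were called lower and 3 higher, and when it was 1, 0 of 41 were lower and 1 was higher. Without the interval, 2 were called higher. In alternatives chosen after seeing the data, 21 were lower and 7 higher without a limit, and 2 were lower among the 36 members with under 50% of their words shared. That set leaves out *Gapdh* and *Pgk1*, as well as *Pkm*, *Eno1* and *Eno1b*. Without a limit, the shares over all genes were the 20.1% below 0 and 22.2% above 0 given above. For the limits of 0.3 and 1, for calls without the interval and for the 36 members, no share over all genes was computed. Those counts show how the calls move with the setting and cannot be read against a background. The background of genes with 1000 counts was also added after seeing the data. A wider core list with *Hk1*, *Pfkp*, *Eno2* and *Pgm1* had a median of -0.34. With the row named *Pgm2* in place of *Pgm1*, again chosen after seeing the data, it was -0.36. Over 41 members and 5 scalings or measures, 202 of 205 ratios stayed within the counting interval of the value given, the exceptions being *Pkm* under TMM and DESeq2 scaling and *Gpi1* in FPKM, the only change of sign. The called genes ranged from -0.86 to -0.82 (*Hk2*), -0.89 to -0.79 (*Gapdh*), -0.61 to -0.57 (*Pgk1*), -0.65 to -0.61 (*Ldha*) and 1.06 to 1.10 (*Aldh3a1*). Depth limits genes such as *Aldoc*, *Eno2* and *Aldh3b1*, whose intervals are wide.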

Other observations

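The table holds a second row named *Aldoa* (ENSMUSG00000114515) that the pathway annotation left out, with 15 counts in control and 5 in *Myl3*-KO and an interval that held 0. Exons of *Aldoa*, *Tpi1*, *Gapdh*, *Pfkm*, *Pfkp*, *Pdha1*, *Pgm2*, *Aldh7a1* and *Adpgk* overlap those of another gene of the table (*Fam57b*, *Spsb2*, *Iffo1*, *Senp1*, *Pitrm1*, *Map3k15*, *Itgb3bp*, *Phax* and *Bbs4* in that order), and those of *Acss2* overlap *Ggt7* and *Gss*, and how reads there were assigned is not given in the sources used here.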
